A study of Homo sapiens with 16 samples.

Results

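A set of 10 genes of the BCL2 family of apoptosis regulators was followed in MCF10HER2 cells while the HER2 kinase was inhibited: the BH3-only genes BCL2L11, BMF, BIK, BID, PMAIP1 and BBC3, the effector genes BAX and BAK1, and the anti-apoptotic genes MCL1 and BCL2L1. Members were taken by name, as every probe whose gene symbol in the array table was 1 of these 10, among 18190 symbols. They have 14 of the 20589 probes, and 10 of the 14 were detected on 3 or more arrays and could be tested, 1 for each gene. MCF10HER2 is a line of the nontransformed human breast epithelial line MCF10A transduced to over express the receptor tyrosine kinase HER2, and CP724,714 is a small molecule inhibitor of that kinase. Parallel cultures received CP724,714 at 1 µM and gave RNA every 3 h from 0 to 45 h, 1 culture and 1 Illumina Ref-8 v2 array for each of 16 time points, so that 1 untreated array at 0 h stands beside 15 treated arrays with no replicates. All cultures, including the untreated one, over expressed HER2 and were kept in serum-free medium with epidermal growth factor and without insulin. Fresh medium was given together with the inhibitor, and no untreated culture later than 0 h was analysed here, so that time in culture and time in inhibitor cannot be told apart.

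The BCL2 family decides whether the outer mitochondrial membrane is opened in the intrinsic pathway of apoptosis. BAX and BAK1 form the openings through which cytochrome c leaves the mitochondrion, MCL1 and BCL2L1 (BCL-xL) hold them in check, and the BH3-only proteins respond to stress by binding the anti-apoptotic members or by activating BAX and BAK1 directly. Loss of receptor tyrosine kinase signaling is known to act on this family through BCL2L11 (BIM) and BMF, which are restrained by the ERK and AKT pathways, and much of that control is exerted on the proteins, which were not measured here.

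Expression is given as the log2 signal after background correction and quantile normalization, and a change as a log2 difference of that signal. The arrays differed in brightness: background was 144.3 to 158.1 intensity units up to 21 h (8 arrays) and 174.3 to 185.2 from 24 h on (8 arrays), and the 9 h and 18 h arrays were dim, with an upper quartile intensity of 397 and 418 against 553 to 804 on the others. For this reason the course was divided into 4 periods of 4 arrays each: period 1 (0 to 9 h), period 2 (12 to 21 h), period 3 (24 to 33 h) and period 4 (36 to 45 h). Period 2 was compared with period 1, and period 4 with period 3, on arrays of the same background level. Arrays of a period are successive time points, not replicates, and every p-value below measures scatter about a curve or a period mean. Of the epithelial markers, KRT5, KRT18, CDH1, TP63 and EPCAM were detected on 3 or more arrays and KRT14 on 1. None of the 3 fibroblast markers was detected, and CDH5 and VWF of the endothelial markers were also not detected, whereas CD14 and PECAM1 were detected on all 16 arrays. Of the other leukocyte markers, CD3E was detected on 1 array and PTPRC on 7 by 1 of its 3 probes. Both varied with time (adjusted p = 7.18e-05 for CD14 and 0.000864 for PECAM1 in limma) and rose from period 1 to period 2, CD14 by 1.35 (adjusted p = 4.95e-05) and PECAM1 by 1.46 (adjusted p = 2.66e-05), the time at which 4 members fell. Over the course CD14 rose by 1.46 (adjusted p = 0.00316 in limma). Their part in the results was not tested.

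Of the 10 members, 5 varied with time: the BH3-only genes BMF, PMAIP1 and BBC3, the effector gene BAX and the anti-apoptotic gene MCL1 (limma moderated F-test of a spline in time, adjusted p under 0.05). Over the whole array 42.4% of the 12321 tested probes passed this test, so that 5 of 10 is close to the background. With the array set (to 21 h, from 24 h) as a block, PMAIP1 and BBC3 lost this call (adjusted p = 0.0771 and 0.0642 in limma), which left BMF, BAX and MCL1. In a straight-line fit over 45 h, BMF rose and BAX fell, and no other member passed, where 13.1% of all probes were called higher and 11.3% lower. The median linear change of the 10 members was -0.18, against 0.011 for all probes tested. The courses thus moved in no common direction, and the 2 members with the steepest trends, a BH3-only gene and an effector gene, went opposite ways.

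**Figure D1:**
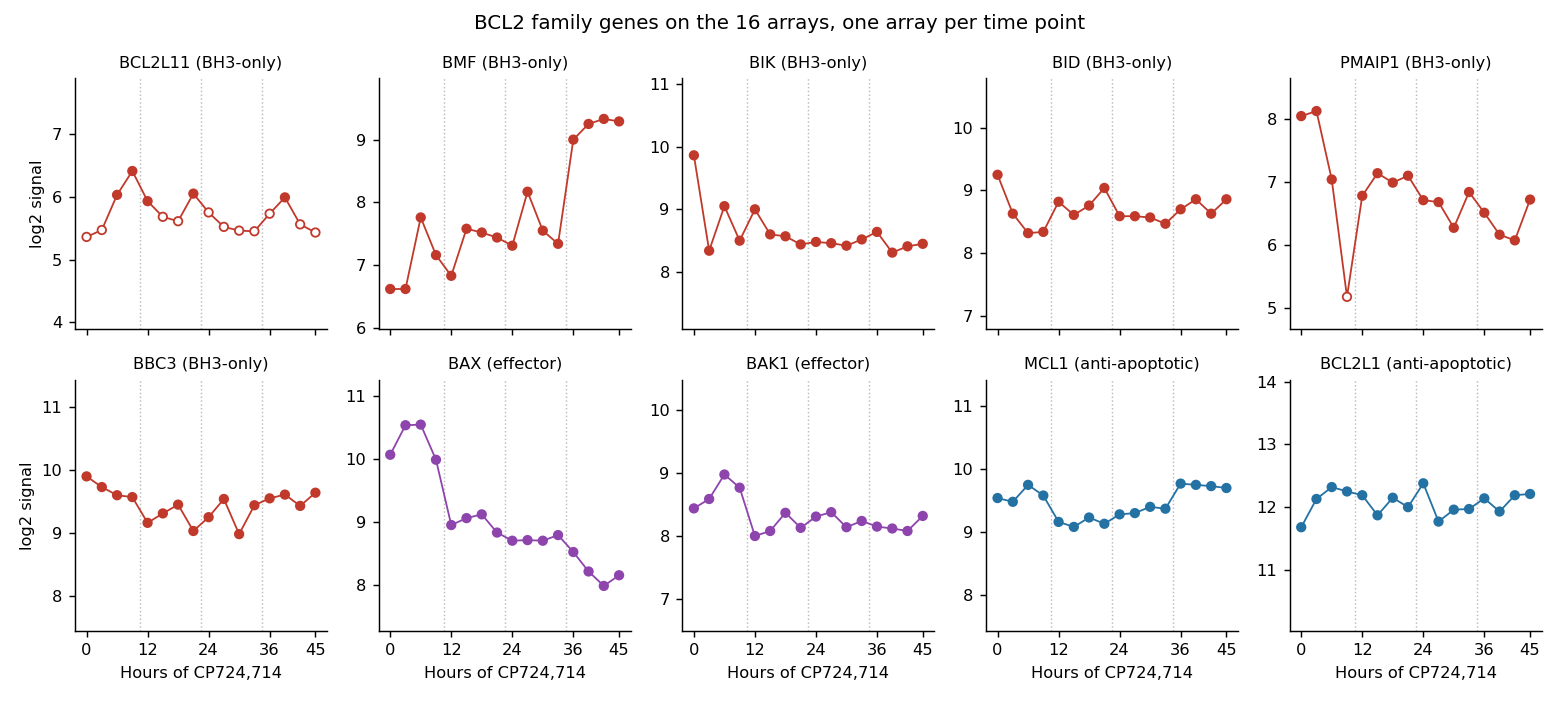
Log2 signal (y axis) of the tested probe of each BCL2 family gene against hours of CP724,714 (x axis), 1 array per point, with BH3-only genes in red, effectors in purple and anti-apoptotic genes in blue. Filled points were detected and open points were not, dotted lines divide the periods, and every panel spans 4 log2 units. BMF stood at 9.00 to 9.33 on the last 4 arrays, above all earlier ones, while BAX went from 10.55 at 6 h to 7.98 at 42 h.

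BMF, a BH3-only protein that is held on the cytoskeleton in healthy cells and binds anti-apoptotic members when released, showed the strongest rise. The log2 signal of its probe ILMN_16249 was 6.62, 6.62, 7.76 and 7.16 from 0 to 9 h, then 6.83, 7.58, 7.52 and 7.44 from 12 to 21 h. It was 7.31, 8.17, 7.55 and 7.34 from 24 to 33 h, and 9.00, 9.25, 9.33 and 9.29 from 36 to 45 h. The last 4 arrays were thus above all 12 earlier ones, and the earlier periods overlapped each other. Period 4 exceeded period 3 by 1.62 ± 0.24 (SE; 3.08-fold, adjusted p = 0.000432 in limma, 4 arrays each), where 5.74% of all probes were called higher. This call was kept under every other setting run for it and without any single array. The linear change over 45 h was 2.50 ± 0.38 (SE; 95% interval 1.71 to 3.29; adjusted p = 0.000101 in limma).

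Most of this rise lay in a single step between successive arrays. Between 33 and 36 h BMF rose by 1.65, or 3.15-fold, a step that only 0.0487% of the tested probes equalled in size and 0.0162% in size and direction. Before normalization its intensity went from 237.3 (0 h) and 371.6 (33 h) to 719.2 (36 h) and 884.4 (45 h), against an array background of 158.1, 184.7, 182.9 and 184.2 at those times. The early values lie close to background, so the size of the fold depends on how background is handled: with a background model that takes a far wider spread of the negative controls, the linear change was 0.96 and period 4 exceeded period 3 by 0.75, both still called. From 0 to 21 h alone, the linear change did not pass (adjusted p = 0.193 in limma). The other BMF probes gave no course, since ILMN_17261 was detected only at 36 h and ILMN_17704 on 0 arrays.

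The sequence before the first of the BMF transcription starts is shown because BMF was the member that rose most. It covers the 250 bases upstream at chr15:40108880-40109129 on the minus strand (RefSeq, GRCh38.p14), written 5′ to 3′, with the GC box in capitals.
BMF: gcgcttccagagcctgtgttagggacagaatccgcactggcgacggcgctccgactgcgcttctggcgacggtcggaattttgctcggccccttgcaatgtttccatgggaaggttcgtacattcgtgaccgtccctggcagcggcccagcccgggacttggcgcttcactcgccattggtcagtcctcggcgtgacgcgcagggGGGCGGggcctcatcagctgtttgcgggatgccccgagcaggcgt
These motifs were looked for on both strands: the FOXO element GTAAACA, the AP-1 site TGACTCA, the cAMP response element TGACGTCA, the E-box CACGTG, the GC box GGGCGG and the TATA box TATAAA. In this stretch the GC box alone was found, 45 bases before the start, and 42.6% of 35114 promoters of the same length hold at least 1. In the second BMF promoter of the table, at chr15:40106967-40107216, none of them was found. Such a match is a description of letters and says nothing of which factor acts there.

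With all arrays in the fit, none of the other 5 BH3-only members rose in a test. BBC3 (PUMA), a target of p53 that binds all anti-apoptotic members, went from 9.90 at 0 h through 9.73, 9.60 and 9.57 to 9.16 at 12 h, then 9.31, 9.45 and 9.03. It was 9.25, 9.54, 8.98 and 9.44 from 24 to 33 h and 9.55, 9.61, 9.43 and 9.64 from 36 to 45 h. All 15 treated arrays were below the untreated array, and all 4 arrays of period 2 were below all 4 of period 1. Period 2 was lower by 0.46 ± 0.13 (SE; adjusted p = 0.00959 in limma), and this call was lost when arrays were scaled to a common median (adjusted p = 0.099). BBC3 passed the spline test with little margin (adjusted p = 0.0423 in limma), with adjusted p from 0.0202 to 0.12 under the alternatives, and the call was lost on leaving out the array of 0, 3, 6, 15, 21, 24, 33, 36, 39 or 45 h.

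PMAIP1 (NOXA), which binds MCL1 and promotes its degradation, was dimmer. From 0 to 9 h its log2 signal was 8.05, 8.13, 7.04 and 5.17, then 6.78, 7.14, 6.99 and 7.10 from 12 to 21 h. From 24 to 33 h it was 6.71, 6.68, 6.27 and 6.84, and from 36 to 45 h it was 6.51, 6.16, 6.07 and 6.72. The first 2 arrays were the highest, and 9 h, a dim array, was the only one on which the probe was not detected. PMAIP1 passed the spline test (fitted range 1.98, adjusted p = 0.0342 in limma), but not without the array of 0, 3, 6, 18 or 21 h, where adjusted p reached 0.27, nor with the array set as a block (0.0771) or a spline with 3 degrees of freedom (0.122). The linear change was -1.10 ± 0.47 (SE; adjusted p = 0.0976 in limma), and without the 9 h array it was -1.55 (adjusted p = 0.000605). Without that array the difference of period 2 from period 1 went from -0.09 to -0.74 and passed (adjusted p = 0.0164 in limma).

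BIK, a BH3-only protein of the endoplasmic reticulum, changed most at the start. It went from a log2 signal of 9.86 (0 h) to 8.34 (3 h), then 9.05, 8.50 and 9.00 at 6, 9 and 12 h, and lay between 8.31 and 8.64 on all arrays from 15 h on. The untreated array was above all 15 treated arrays. The step from 0 to 3 h was -1.51, a fall of 2.86-fold that 0.982% of probes equalled in size, and before normalization the intensity went from 1089 to 415.5. This step rests on 1 untreated array and has no test. Over the course BIK missed the threshold of the spline (adjusted p = 0.0778 in limma) and of the linear fit (change -0.70, 95% interval -1.23 to -0.17, adjusted p = 0.0507). Both passed without the 3 h array (adjusted p = 0.00109 and 0.0112 in limma), and the linear fit also passed without the 9 h array (0.0343), with normexp from the signals alone (0.0489) and over probes detected on all 16 arrays (0.0434). The spline also passed with 3 degrees of freedom (0.0435) and under the wider background model (0.0361). Without the 0 h array the linear change was -0.32.

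BID, which links death receptors to the mitochondrion once it is cleaved by caspase-8, also had its highest signal on the untreated array, at 9.25. It was 8.63, 8.32 and 8.34 at 3, 6 and 9 h and lay between 8.47 and 9.04 on the remaining arrays. Neither the spline (adjusted p = 0.292 in limma) nor the linear fit passed (change -0.01, 95% interval -0.43 to 0.42). All 4 arrays of period 4 were above those of period 3, by 0.21 on average (adjusted p = 0.485 in limma), and 15.3% of all probes showed the same lack of overlap. Period 2 was higher than period 1 by 0.17, which became 0.38 and passed without the 0 h array (adjusted p = 0.0184 in limma). The other BID probe, ILMN_23641, was detected on 0 arrays.

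BCL2L11 (BIM), a potent activator of BAX and BAK1, was near background throughout. Its probe ILMN_14809 was detected on 5 arrays, at 6, 9, 12, 21 and 39 h, with a log2 signal from 5.36 to 6.41. The highest value was that of 9 h and the lowest that of 0 h. The linear change was -0.21 (95% interval -0.71 to 0.29; adjusted p = 0.583 in limma), and the spline gave adjusted p = 0.211. A second probe, ILMN_16692, was detected on 2 arrays, those of 6 and 9 h, and was not tested. Its log2 signal was 6.57 and 6.42 there, against 4.97 to 5.75 on the other arrays. Steady changes of BCL2L11 below about the width of the interval of the linear change were not detectable at this brightness. That interval does not bound a brief change.

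BAX showed the steepest fall of the family. The log2 signal of ILMN_10832 was 10.07, 10.54, 10.55 and 9.99 from 0 to 9 h, and 8.95, 9.06, 9.12 and 8.83 from 12 to 21 h. It was 8.70, 8.71, 8.70 and 8.79 from 24 to 33 h, and 8.52, 8.21, 7.98 and 8.15 from 36 to 45 h. All 12 arrays from 12 h on were below the first 4, and the last 4 were below all others. The linear change was -2.32 ± 0.26 (SE; 95% interval -2.87 to -1.78; 5.01-fold, adjusted p = 4.94e-06 in limma), and the spline gave adjusted p = 1.5e-05. Both calls were kept under every other setting run for them and without any single array.

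Most of the fall came between periods 1 and 2. Period 2 was below period 1 by 1.30 ± 0.14 (SE; 2.46-fold, adjusted p = 4.64e-06 in limma). Period 3 differed from period 2 by -0.26 (95% interval -0.56 to 0.04; adjusted p = 0.623 in limma), and all 4 of its arrays were below those of period 2, as for 4.63% of all probes. Period 4 was below period 3 by 0.51 ± 0.14 (SE; 1.43-fold, adjusted p = 0.0246 in limma), but this smaller step missed the threshold under median scaling (adjusted p = 0.0759), under the wider background model (0.246), and without the array of 24, 27, 30, 33, 39, 42 or 45 h (0.0506 to 0.0909). In the normalized values the first fall lay mainly between 9 and 12 h (-1.04, a step of that size and direction in 1.92% of probes). In the intensities before normalization it came earlier, with 1252 (0 h), 1530 (6 h), 687.8 (9 h) and 564.2 (12 h). Because the 9 h array was dim as a whole, a fall by 9 h and one after 9 h cannot be told apart.

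**Figure D2:**
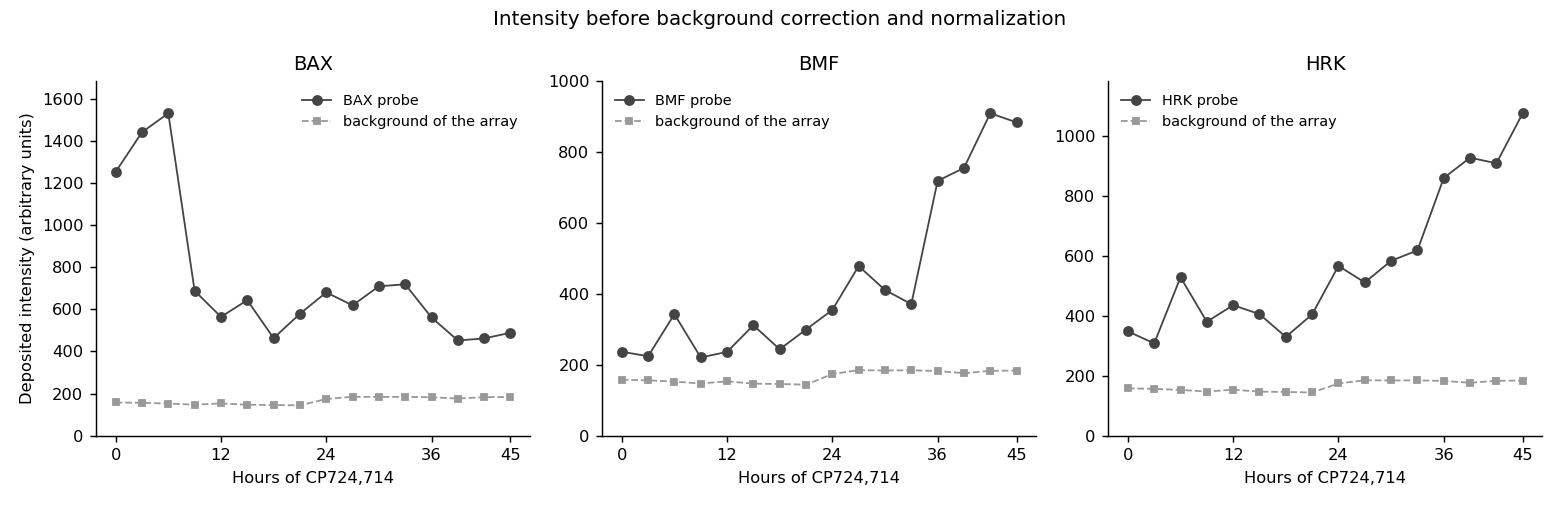
Deposited intensity in arbitrary units (y axis) of the probes of BAX, BMF and HRK against hours of CP724,714 (x axis), with the background of each array as grey squares. BAX fell from 1530 at 6 h to 564.2 at 12 h, and BMF rose from 371.6 at 33 h to 719.2 at 36 h, in both cases far more than the background moved.

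The 250 bases upstream of the BAX transcription start are shown because BAX fell most. They lie at chr19:48954625-48954874 on the plus strand (RefSeq, GRCh38.p14), written 5′ to 3′, with E-boxes and the GC box in capitals.
BAX: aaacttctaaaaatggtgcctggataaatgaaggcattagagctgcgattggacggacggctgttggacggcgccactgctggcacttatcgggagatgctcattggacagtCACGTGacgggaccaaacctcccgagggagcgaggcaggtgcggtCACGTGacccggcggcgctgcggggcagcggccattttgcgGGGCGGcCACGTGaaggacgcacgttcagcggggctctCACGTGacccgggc
The stretch holds 4 copies of the E-box CACGTG, which begin 138, 93, 45 and 14 bases before the start and overlap neither each other nor the GC box. At least 1 copy is present in 6.35% of all 35114 promoters and at least 4 copies in 0.0142%, or 5 promoters, a count made after the BAX sequence had been seen. CACGTG is the core bound by factors such as MYC, MAX and USF1. Of the 10 members, 8 have a promoter in the table, and among them BAX, BBC3 and BID hold an E-box, BCL2L11 alone holds a FOXO element (223 bases before its start; 2.98% of all promoters do) and 6 hold a GC box. MYC itself had a linear change of 0.27 (adjusted p = 0.693 in limma), and its period 2 mean exceeded that of period 1 by 0.42 (adjusted p = 0.388). The log2 signal of MYC ran from 10.24 at 3 h to 12.64 at 24 h. Its part in the course of BAX was not tested.

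BAK1, the effector that sits in the outer membrane of the mitochondrion, was at 8.44, 8.59, 8.98 and 8.77 from 0 to 9 h and was lowest at 12 h (7.999), followed by 8.08, 8.37 and 8.13 to 21 h. It lay between 8.08 and 8.38 on the last 8 arrays. Period 2 was below period 1 on all arrays, by 0.55 ± 0.13 (SE; 1.46-fold, adjusted p = 0.00279 in limma), and this call was kept under every other setting run for it and without any single array. Neither the spline (adjusted p = 0.251 in limma) nor the linear fit passed (change -0.47, 95% interval -0.88 to -0.06, adjusted p = 0.0926). Pearson's r between BAK1 and BAX was 0.79 over the 16 arrays, a description of curves that share each array and its scaling.

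MCL1, a short-lived anti-apoptotic protein that binds BAK1 and several BH3-only proteins, fell and then came back. Its log2 signal was 9.54, 9.48, 9.75 and 9.58 from 0 to 9 h, and 9.16, 9.08, 9.23 and 9.13 from 12 to 21 h. It was 9.28, 9.30, 9.40 and 9.37 from 24 to 33 h, and 9.77, 9.75, 9.73 and 9.70 from 36 to 45 h. Period 2 lay wholly below period 1, and period 4 wholly above period 3. MCL1 fell by 0.44 ± 0.09 (SE; 1.36-fold, adjusted p = 0.000904 in limma) into period 2 and rose by 0.40 ± 0.09 (SE; 1.32-fold, adjusted p = 0.00679 in limma) into period 4. Both calls were lost only under median scaling (adjusted p = 0.0633 and 0.123). As the 2 moves were of like size, the linear change was 0.24 (95% interval -0.17 to 0.64; adjusted p = 0.417 in limma), while the spline passed (adjusted p = 0.0113) under all settings tried.

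BCL2L1 (BCL-xL), the long-lived counterpart of MCL1, varied less. The log2 signal on the untreated array was 11.68, against values between 11.77 and 12.38 on all 15 treated arrays, so it was the lowest. The spline (adjusted p = 0.429 in limma) and the linear fit did not pass, and the interval of the linear change, -0.30 to 0.37, bounds a steady change in either direction. Period 4 differed from period 3 by 0.09 (95% interval -0.19 to 0.38).

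**Figure D3:**
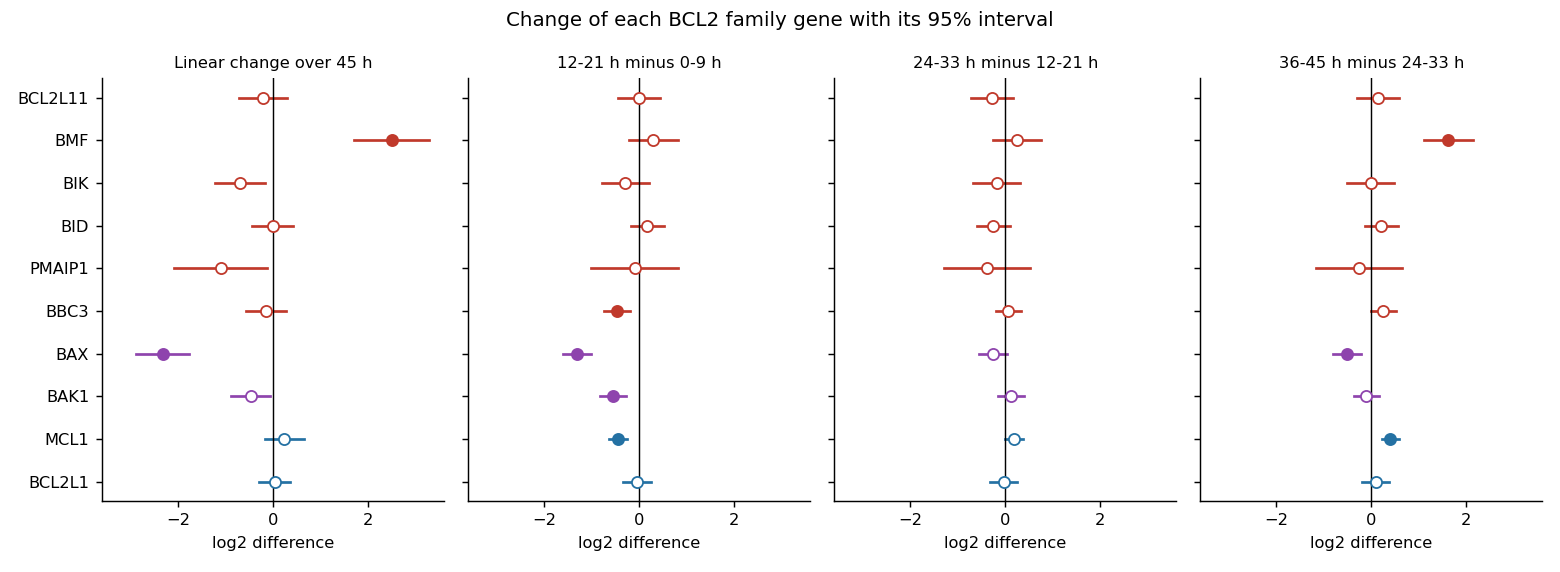
Log2 difference (x axis) with its 95% interval (line) for the tested probe of each BCL2 family gene (y axis): the linear change over 45 h and the contrasts of successive periods, 4 arrays each. Colours give the role as BH3-only (red), effector (purple) or anti-apoptotic (blue), and filled points passed an adjusted p of 0.05. In the last panel BMF stood at 1.62, MCL1 at 0.40, BCL2L1 at 0.09 and BAX at -0.51.

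In the comparisons of successive periods, members passed between periods 1 and 2 and between periods 3 and 4. Most calls over all probes lay there too: 4364 and 1455, against 13 between periods 2 and 3. Moves within a period, such as those of BIK from 0 to 3 h and PMAIP1 from 3 to 9 h, are not covered by these comparisons. Between periods 1 and 2, 4 of the 10 fell and 0 rose (BAX, BAK1, BBC3 and MCL1, pro-apoptotic and anti-apoptotic alike), where 17.3% of all probes were called lower and 18.1% higher. With arrays scaled to a common median instead, the calls over all probes were 2217 higher and 1122 lower in this comparison, in place of 2227 and 2137, and BBC3 and MCL1 dropped out. These 4 members also did not overlap between the periods, as was the case for 12.2% of all probes in this direction. Between periods 2 and 3, 0 members passed in limma, against 0.106% of all probes. At an unadjusted p under 0.05, 1 of 10 passed, MCL1, and the share of all probes at that threshold was not counted. The comparison of periods 2 and 3 crosses the change in array background. Between periods 3 and 4 BMF and MCL1 rose and BAX fell, where 5.74% of probes were called higher and 6.07% lower. With median scaling these calls over all probes were 246 higher and 401 lower, in place of 707 and 748, and of the 3 members BMF alone stayed past the threshold.

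From 36 h on, then, a BH3-only gene and an anti-apoptotic gene were both higher than at 24 to 33 h, BMF by 1.62 (95% interval 1.11 to 2.13) and MCL1 by 0.40 (0.22 to 0.59), while the effector gene BAX was lower (-0.51, interval -0.81 to -0.22). The difference between the genes was not tested. At the study's threshold of 1.7-fold from the 0 h array at any time, 7 of the 10 members counted as changed, against 53.8% of all probes; BAK1, MCL1 and BCL2L1 did not reach it. BMF reached it upward and BIK, BID, PMAIP1, BBC3 and BAX downward, 6 of the 9 members detected at 0 h. BCL2L11 also crossed it upward, but was not detected at 0 h, so no fold can be given for it. In bulk RNA, a smaller share of the cells that make a transcript and less of it per cell cannot be told apart.

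Among 14 other BCL2 family genes, 11 had a tested probe. By the brightest probe of each, 4 varied with time, 4 rose in the linear fit and 0 fell, against 42.4%, 13.1% and 11.3% of all probes. HRK, a further BH3-only gene whose product binds BCL2L1, resembled BMF. It had a log2 signal of 7.71 (0 h) and 7.64 (3 h), between 8.13 and 8.82 from 6 to 33 h, and 9.34, 9.61, 9.32 and 9.63 on the last 4 arrays, again above all others. The linear change was 1.47 ± 0.31 (SE; adjusted p = 0.00175 in limma), and period 4 exceeded period 3 by 1.12 (adjusted p = 0.00288). BCL2L2 (BCL-w), which is anti-apoptotic, had a linear change of 0.88 (adjusted p = 0.034 in limma) and BOK, an effector-like member, of 0.67 (adjusted p = 0.044). Both were lowest on the untreated array (8.82 and 7.51) and highest early, BCL2L2 at 6 h (10.73) and BOK at 9 h (8.76). No difference between successive periods passed for either. The BCL2L12 probe ILMN_4750 fell by 0.72 (adjusted p = 0.0141 in limma), a probe other than the brightest of that gene. BCL2 itself was near background, detected on 10 arrays by its probe ILMN_3868 (log2 signal 5.325 to 6.94) and on 1 by ILMN_3287. At ILMN_3868 it did not pass the spline test (adjusted p = 0.22 in limma). That probe rose by 0.59 from period 1 to period 2 (adjusted p = 0.0392 in limma) and fell by 0.86 from period 3 to period 4 (adjusted p = 0.0146), when MCL1 rose. Its linear change was 0.25 (adjusted p = 0.682 in limma), and at this brightness the size of these changes is not exact. The genes BCL2A1, BCL2L10 and BCL2L15 were not detected on enough arrays to test.

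Downstream of the mitochondrion, released cytochrome c builds the apoptosome, which activates the executioner caspases. Of 14 apoptosome and executioner genes, 8 varied with time (42.4% of all probes did), 1 rose and 1 fell in the linear fit (13.1% and 11.3% of all probes). VDAC2, a channel of the outer mitochondrial membrane that holds BAK1, rose by 0.66 (adjusted p = 3.13e-05 in limma). The CASP6 probe ILMN_11674 rose by 0.91 into period 2 (adjusted p = 0.0192 in limma), with a linear change of 0.62 (adjusted p = 0.262). The brighter CASP6 probe, ILMN_11438, differed by 0.42 between periods 1 and 2 and did not pass (adjusted p = 0.059 in limma). DIABLO, which antagonises the inhibitors of apoptosis, fell by 0.40 into period 2 (adjusted p = 0.00331 in limma), with a linear change of -0.23 (adjusted p = 0.324). Of 6 inhibitors of apoptosis, 2 varied with time, 0 rose in the linear fit and 1 fell, against 42.4%, 13.1% and 11.3% of all probes. The gene that fell was BIRC3, by 1.22 (adjusted p = 0.0041 in limma). Its probe had a detection p under 0.05 on only 6 arrays despite a log2 signal from 8.78 to 10.75. The highest value was that of the untreated array and the lowest that of 9 h, and no difference between successive periods passed. XIAP varied with time (adjusted p = 0.033 in limma) and fell by 0.64 into period 2 (adjusted p = 0.0123), with a linear change of -0.14 (adjusted p = 0.757).

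The extrinsic pathway starts at death receptors of the cell surface and reaches BAX through BID. Of 11 death receptor genes, 7 varied with time, 2 rose and 2 fell in the linear fit, against the same shares of all probes. The ligand TNFSF10 (TRAIL) rose by 2.73 ± 0.37 (SE, adjusted p = 3.86e-05 in limma). It was detected on 15 arrays and was dim in period 1 (mean log2 signal 6.55), so that the size of this rise is not exact. CFLAR (FLIP), which blocks caspase-8, rose by 0.84 (adjusted p = 0.000601 in limma). The receptors FAS and TNFRSF10A, a receptor of TRAIL, fell by 1.43 (adjusted p = 3.46e-05 in limma) and by 1.27 (adjusted p = 0.00084). TNFRSF10B, the other TRAIL receptor on the list, varied with time (adjusted p = 0.00384 in limma) and had a linear change of -0.67 (adjusted p = 0.0562).

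Of 13 transcription factors known to act on the members, 12 could be tested and TP73 was not detected on enough arrays. Of the 12, 7 varied with time, 1 rose in the linear fit and 0 fell, against 42.4%, 13.1% and 11.3% of all probes. The gene that rose was FOXO4, of a family known to drive BCL2L11 and other BH3-only genes, by 1.54 ± 0.37 (SE, adjusted p = 0.00512 in limma). FOXO1 and FOXO3 did not rise in that fit, with changes of -0.02 and -0.12 (adjusted p = 0.953 and 0.807 in limma). FOXO3 fell by 0.65 into period 2 (adjusted p = 0.00768 in limma). Its probe had a detection p under 0.05 on only 5 arrays, despite a log2 signal from 10.24 to 11.75. EGR1, JUN and E2F1 varied with time (adjusted p = 0.004, 0.0483 and 0.031 in limma) but did not pass the linear fit (changes 0.57, -0.32 and -0.94). EGR1 fell by 0.80 into period 2 (adjusted p = 0.00801 in limma) and rose by 0.72 into period 4 (adjusted p = 0.038). JUN fell by 0.60 into period 2 (adjusted p = 0.0443 in limma) and E2F1 by 0.87 into period 4 (adjusted p = 0.0348). Among 6 genes whose products bind the members or turn them over, 4 varied with time, 0 rose in the linear fit and 2 fell, against the same shares of all probes. DYNLL2, the dynein light chain that tethers BMF, fell by 0.94 ± 0.23 (SE; adjusted p = 0.00518 in limma), and its period 4 mean was below that of period 3 by 0.56 (adjusted p = 0.0451). FBXW7, a ubiquitin ligase subunit that targets MCL1, had a linear change of -0.86 at its probe ILMN_7221 (adjusted p = 0.0362 in limma), detected on 9 arrays. That probe was highest on the untreated array (8.75, against a median of 7.34), and no difference between successive periods passed for it. Its probe ILMN_18088 was detected on 3 arrays, so that the size of its linear change, -0.98 (adjusted p = 0.0102 in limma), is not exact. HUWE1, another ligase of MCL1, had a linear change of 0.31 and DYNLL1, a light chain that binds BCL2L11, of -0.24 (adjusted p = 0.465 and 0.116 in limma), and DYNLL1 fell by 0.29 into period 4 (adjusted p = 0.00739).

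The probes whose courses lay closest to BMF over the 16 arrays were those of PFDN5 (Pearson's r = 0.968), RNF113A (0.965), PLEKHA4 (0.960), FBXL16 (0.958) and BLVRB (0.957). Closest to MCL1 were KLK6 (0.939), TTLL3 (0.936), ZSWIM4 (0.934), PTK2B (0.932) and ATP6AP1 (0.930). Closest to BAX, a member added to this search after its values were seen, were UPP1 (0.970), SEC11L3 (0.970), PPIB (0.968), C12orf5 (0.966) and KHDRBS3 (0.964). These are the highest correlations among all tested probes, computed between smooth curves that share arrays and scaling, and they are given as a description. Within the family, r was -0.71 between BAX and BMF, 0.59 between BMF and MCL1 and 0.61 between MCL1 and BBC3, on the same 16 arrays.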

How the data were processed

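RNA of 16 parallel cultures, 1 per time point, was hybridised to Illumina Ref-8 v2 arrays. The authors deposited the intensity of each probe before normalization and beside it a detection p-value, which ranks the probe among the negative controls of its array. Their methods name quantile normalization of the compared arrays. The background correction they used is not given in the sources used here.

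The detection p-values lie on steps of 1 in 708 (tolerance 0.01 of a step) for 93.3% of values, and the remainder do not. The negative controls were therefore rebuilt from the values on steps, and their median and MAD entered a normexp correction with an offset of 16, followed by quantile normalization and log2, a correction chosen after the detection p-values had been examined. Inferring the control spread from all p-values (neqc) gave a far wider spread and smaller folds for dim probes, and is an alternative chosen after seeing the data, as is leaving out the 9 h and 18 h arrays together. The offset shrinks the folds of dim probes as well. A probe was tested if its detection p was under 0.05 on at least 3 of the 16 arrays (12321 probes, leaving out 40.2%).

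Tests used limma 3.58.1 in R 4.3.3 (lmFit, eBayes with trend). They were a spline in time with 4 degrees of freedom, a slope given as change over 45 h, and contrasts of 4 period means. Each had Benjamini-Hochberg adjustment over all tested probes and a threshold of 0.05. The spline and the slope were checked on simulated data, and of the contrasts only that of the last period with the period before. The p-values of these tests treat successive time points as independent and may be too small for drifts between arrays. The study's change of 1.7-fold was counted from 0 h without a test. The number of arrays limits the precision. The members and lists were chosen with earlier results of these data known. By rule, all members were named and, from each other list, the 2 highest and 2 lowest linear changes among time-dependent probes, genes not tested, and the 5 nearest patterns of BMF and MCL1. A result that the rule names is not reported here. BCL2, MYC, FOXO1, FOXO3, TNFRSF10B, the FBXW7 probe ILMN_7221, the CASP6 probe ILMN_11438 and the nearest patterns of BAX were named outside the rule, after their values were seen. Of the 89 listed genes, 11 were found under an older symbol, and symbols are given in current form for these. Alternatives covered background, offset, scaling, filter, spline, array set (to 21 h, from 24 h) as a block, array weights and single arrays.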

Additional observations from a re-analysis of the deposited data

How the results depend on the processing

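No paired analysis was possible because no time point has a second array. The linear and spline calls of BAX, the spline and period 4 calls of BMF, the spline call of MCL1 and the period 2 calls of BAX and BAK1 were kept under all alternatives run for that test, and the linear call of BMF under all but the 0 to 21 h arrays alone. Of the counts over all probes, the 6627 probes past 1.7-fold became 3828 with normexp from the signals alone, 4236 with detection on all 16 arrays and 2398 with neqc on all detection p-values. The 13 calls between periods 3 and 2 became 0 with median scaling, 6 with no filter and 21 with neqc on all detection p-values, and the 1455 calls between periods 4 and 3 became 647 with median scaling. The 3006 linear calls became 803 with array set (to 21 h, from 24 h) as a block and 1443 from 0 to 21 h alone. The cause was not tested. Leaving out 1 array gave 4091 to 5842 time-dependent probes (5218 with all arrays), 2532 to 3135 linear calls, 3744 to 5390 calls between periods 2 and 1 (4364 with all arrays), 2 to 52 between periods 3 and 2, 779 to 2114 between periods 4 and 3, and 6267 to 6572 past 1.7-fold. The signs that turned belonged to changes short of the threshold. Linear changes given for 0 to 21 h or 24 to 45 h alone are slopes scaled to 45 h, not changes within those hours. The linear change of BID became 0.16 with median scaling, 0.33 with the array set as a block, 0.10 from 0 to 21 h and 0.57 from 24 to 45 h. That of BCL2L11 became 0.35 with the block and 0.71 from 0 to 21 h, that of MCL1 -0.00 with the block and -1.18 from 0 to 21 h, and that of BBC3 0.75 from 24 to 45 h. Between periods 2 and 1 BCL2L1 became 0.05 with median scaling and BCL2L11 -0.01 with an offset of 50 and -0.00 with neqc on all detection p-values, and between periods 3 and 2 BCL2L1 became 0.00 without the 9 h and 18 h arrays. Without 1 array at a time, the linear change ran from -0.12 to 0.11 for BCL2L1, from -0.11 to 0.23 for BID and from -0.26 to 0.01 for BBC3. The difference of period 2 from period 1 ran from -0.15 to 0.20 for BCL2L11, from -0.74 to 0.25 for PMAIP1, from -0.49 to 0.02 for BIK and from -0.18 to 0.03 for BCL2L1. That of period 3 from period 2 ran from -0.15 to 0.05 for BCL2L1 and from -0.01 to 0.17 for BBC3, and that of period 4 from period 3 from -0.08 to 0.03 for BIK. The differences between periods were not run with array weights or the block. Dim signals limit BCL2L11, PMAIP1, BCL2 and the early values of BMF and TNFSF10.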
